A study of Mus musculus with 8 samples.

Results

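The genes of MHC class II antigen presentation were followed in the hippocampus of young and old mice. The 7 genes were H2-Aa, H2-Ab1 and H2-Eb1, which encode chains of the class II molecules displayed at the cell surface, H2-DMa and H2-DMb1, which encode the peptide editor, Cd74, which encodes the invariant chain, and Ciita, which encodes the transactivator of the class II genes. They were chosen by name, with earlier results of these data known. Every probe whose RefSeq accession led to 1 of these genes was taken. Each gene had 1 such probe, so the set made up 7 of 39429 probes and 7 of 19751 named genes. Probes of these genes without such an accession would have been missed. The samples were hand-dissected whole hippocampi of wild type C57BL/6J mice that received no treatment and were aged in the home cage, 4 samples at 3 months (3M) and 4 at 29 months (29M). Sex was not given in the sources used here. RNA of each sample was described as polyA RNA, whereas the study's methods name total RNA for the arrays. It was labelled with Cy3 and hybridised to 1 array, and 3 slides carried the 8 arrays. Whether each sample came from a separate mouse was not stated, so p-values measure the spread between these samples.

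MHC class II molecules are heterodimers of an alpha and a beta chain that carry peptides from engulfed or endocytosed proteins to the surface of antigen-presenting cells, where CD4+ T cells read them. The invariant chain escorts newly made class II molecules to the endosome and blocks their groove, cathepsins trim it down to a short peptide, and H2-DM exchanges that peptide for others. CIITA binds no DNA itself: it is recruited to an assembly of RFX, CREB and NF-Y proteins on the X and Y boxes of class II promoters, and interferon gamma is its best known inducer. In the brain, resting microglia hold little class II protein, while macrophages at the brain's borders and dendritic cells hold more.

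Apart from Cd74 and Ciita, the members lie together in the MHC region of chromosome 17. In the RefSeq gene order of that region H2-Oa comes first, then Brd2, H2-DMa, H2-DMb2 and H2-DMb1. After them come the class I processing genes Psmb9, Tap1, Psmb8 and Tap2, then H2-Ob, H2-Ab1, H2-Aa, H2-Eb1 and H2-Eb2. The promoters below are shown because the X and Y boxes are the elements on which CIITA acts. Each window runs from 250 bases before to 50 bases after the start site, 5′ to 3′ on the gene's own strand, from RefSeq on GRCm38.p6: chr17:34287774-34288073 on the minus strand for H2-Aa, and on the plus strand chr17:34305617-34305916 for H2-Eb1, chr17:34152941-34153240 for H2-DMb1 and chr17:34092129-34092428 for H2-Oa, the alpha chain of the H2-O protein that restrains H2-DM. Capitals mark matches to AGCAAC (core of the X1 box), TGACGT (core of the X2 box) and GATTGG (core of the Y box) on either strand, and a run of 13 letters that H2-Eb1 and H2-DMb1 share.
H2-Aa: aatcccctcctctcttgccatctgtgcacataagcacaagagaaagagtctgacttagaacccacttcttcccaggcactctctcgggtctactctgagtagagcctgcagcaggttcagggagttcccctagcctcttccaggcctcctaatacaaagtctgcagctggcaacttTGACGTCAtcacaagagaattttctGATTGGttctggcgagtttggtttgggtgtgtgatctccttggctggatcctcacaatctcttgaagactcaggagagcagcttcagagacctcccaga
H2-Eb1: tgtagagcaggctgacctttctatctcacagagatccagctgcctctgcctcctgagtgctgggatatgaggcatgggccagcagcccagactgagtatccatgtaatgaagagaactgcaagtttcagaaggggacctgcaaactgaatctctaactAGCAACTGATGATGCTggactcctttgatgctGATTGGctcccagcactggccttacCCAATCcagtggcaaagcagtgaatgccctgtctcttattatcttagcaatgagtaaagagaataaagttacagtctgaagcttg
H2-DMb1: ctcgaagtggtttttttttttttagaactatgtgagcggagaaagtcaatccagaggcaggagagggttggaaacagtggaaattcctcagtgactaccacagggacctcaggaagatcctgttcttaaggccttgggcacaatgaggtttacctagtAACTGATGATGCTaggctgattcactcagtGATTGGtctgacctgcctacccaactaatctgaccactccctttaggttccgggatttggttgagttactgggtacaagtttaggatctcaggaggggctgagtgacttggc
H2-Oa: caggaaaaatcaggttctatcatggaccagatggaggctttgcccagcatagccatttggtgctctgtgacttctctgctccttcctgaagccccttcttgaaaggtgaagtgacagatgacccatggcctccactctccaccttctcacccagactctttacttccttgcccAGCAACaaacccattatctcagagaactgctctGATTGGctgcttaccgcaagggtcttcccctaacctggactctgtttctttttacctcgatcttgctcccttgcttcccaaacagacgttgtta

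The Y box core stood on the gene's strand in all 4 of these windows, from -49 to -44 in H2-Aa, from -60 to -55 in H2-Eb1, from -62 to -57 in H2-DMb1 and from -44 to -39 in H2-Oa, counted from the start site. H2-Eb1 held a further copy on the opposite strand from -35 to -30. The X1 core preceded the Y core in H2-Eb1, from -92 to -87, and in H2-Oa, from -77 to -72, and the X2 core was found in H2-Aa from -74 to -69, where it overlaps its own reverse match from -72 to -67. The shared run, AACTGATGATGCT, began at -92 in H2-DMb1 and at -89 in H2-Eb1, where it overlaps the X1 core. It occurred in 3 of 32851 RefSeq mouse windows of the same length, those of H2-DMb1, H2-Eb1 and Slc39a10. Over all 32851 windows, 16.1% held the Y core, 14.8% the X1 core and 7.51% the X2 core on either strand.

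Windows were at hand for 8 class II genes, of which 4 were members, and all 8 held a Y core on the gene's strand in at least 1 window. H2-DMa had 2 windows, with a Y core from -199 to -194 in the one and none in the other. Searches for TGACGC (the X2 form of the human DRA promoter, in 7.40% of all windows), GAAANNGAA (interferon-stimulated element, 8.56%), TTCNNNGAA (interferon gamma activated site, 8.30%) and GAGGAA (core bound by PU.1, 28.3%), on both strands, found among the 4 members a PU.1 core in H2-DMb1, on the opposite strand from -167 to -162. These matches are letters in a window and say nothing of binding. No window was printed for H2-Ab1, Cd74 or Ciita.

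All 7 probes were well above background on all 8 arrays. Values are normalized log2 intensities, in which a step of 1 is a doubling of signal. A probe was called changed where the limma p-value, adjusted over all 39408 tested probes by the Benjamini-Hochberg method, was below 0.1 and the log2 change between 29M and 3M was at least 0.5 (1.41-fold). By this rule 1.25% of all probes were called higher and 0.817% lower in 29M. Of the 7 class II probes 0 were called by limma, and 2 had an unadjusted p below 0.05, H2-DMb1 and Ciita. The mean was higher in 29M for 6 of the 7 genes, and the median log2 change was 0.57, against 0.0033 over all tested probes. Because the samples were whole tissue, more cells of a type and more RNA in each cell cannot be told apart.

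H2-Aa, H2-Ab1 and H2-Eb1 encode the chains of the surface molecules. H2-Aa, the alpha chain of I-A, was at 8.89, 7.89, 7.24 and 8.10 on the 3M arrays (replicates 1 to 4) and at 8.72, 8.69, 9.14 and 7.86 on the 29M arrays. Replicate 1 of 3M was above all 29M arrays but replicate 3, and replicate 4 of 29M was below 3 of the 4 young arrays, so the groups overlapped. The young mean was 8.03 ± 0.68 (SD, n = 4) and the old mean 8.60 ± 0.54 (SD, n = 4). Its log2 change was 0.57 with an SE of 0.35 and a 95% confidence interval from -0.22 to 1.37, or 1.49-fold (limma, adjusted p = 0.450).

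H2-Ab1, the beta chain that pairs with H2-Aa, was at 11.95, 10.76, 10.13 and 10.84 in 3M and at 11.60, 11.71, 12.13 and 10.71 in 29M. The same arrays broke the separation as for H2-Aa: replicate 1 of 3M stood with the old samples and replicate 4 of 29M with the young. Its log2 change was 0.61 with an SE of 0.39 (interval from -0.26 to 1.49, 1.53-fold, limma adjusted p = 0.467).

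H2-Eb1, the beta chain of I-E, was at 12.57, 11.30, 10.97 and 11.36 in 3M and at 12.29, 12.38, 12.71 and 11.36 in 29M. Replicate 4 of 29M was level with replicate 4 of 3M. The log2 change was 0.64 with an SE of 0.37 (interval from -0.19 to 1.46, 1.55-fold, limma adjusted p = 0.422). C57BL/6 mice make no I-E protein, since the promoter of their alpha chain gene H2-Ea is deleted, so the H2-Eb1 value is a transcript level. H2-Ea was not matched to a probe.

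Cd74 covers the groove of class II molecules until they reach the endosome. It was at 12.64, 11.39, 10.91 and 11.65 in 3M and at 12.07, 11.88, 12.73 and 11.14 in 29M. Replicate 1 of 3M lay above 3 of the 4 old arrays, and replicate 4 of 29M lay below 3 of the 4 young ones. The means of 11.65 ± 0.73 (SD, n = 4) and 11.95 ± 0.66 (SD, n = 4) differed by a log2 change of 0.31 with an SE of 0.40 (interval from -0.58 to 1.19, limma adjusted p = 0.745).

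**Figure D1:**
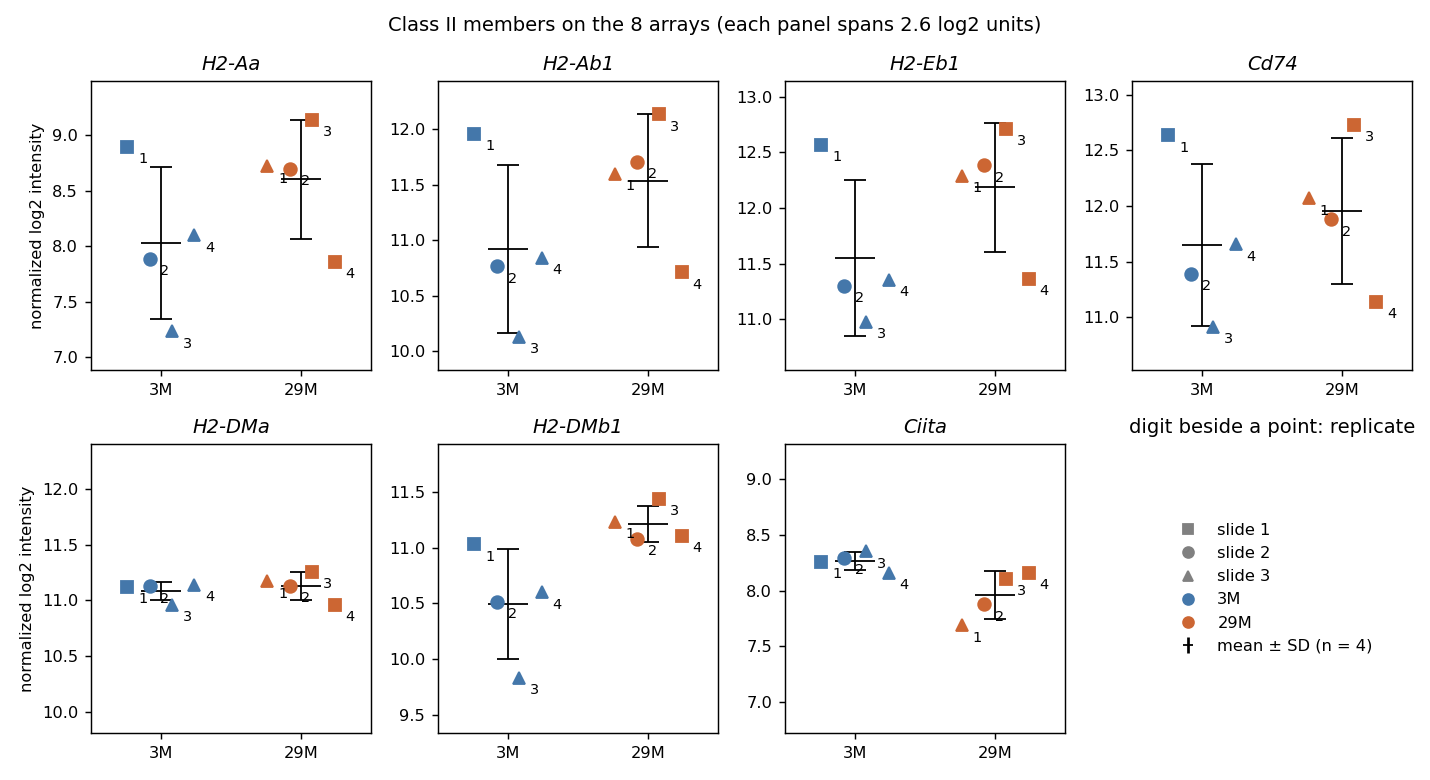
Normalized log2 intensity (y axis) of the 7 genes on the 4 arrays of 3M and the 4 of 29M (x axis), with the symbol for the slide, the replicate number beside each point and mean ± SD in black. In H2-Aa, H2-Ab1, H2-Eb1 and Cd74 replicate 1 of 3M sits among the old samples and replicate 4 of 29M among the young, whereas the groups of H2-DMb1 and of Ciita do not overlap.

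The subunits of the peptide editor H2-DM differed in their values. H2-DMb1, the beta subunit, was at 11.03, 10.51, 9.83 and 10.60 in 3M and at 11.24, 11.08, 11.44 and 11.11 in 29M. Every 29M array was above every 3M array, with replicate 1 of 3M close to replicate 2 of 29M. Non-overlapping groups with 29M higher were found for 5.51% of all tested probes. The log2 change of H2-DMb1 was 0.72 with an SE of 0.22 (interval from 0.23 to 1.21, 1.65-fold), and its limma adjusted p of 0.144 missed the threshold.

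H2-DMa, the alpha subunit, was at 11.12, 11.13, 10.96 and 11.14 in 3M and at 11.17, 11.13, 11.26 and 10.96 in 29M. The groups covered nearly the same range. The log2 change of 0.05 had an SE of 0.09 and an interval from -0.16 to 0.25, which leaves room for a change of at most 1.19-fold upward (limma adjusted p = 0.847). H2-DMb1 has a near-identical neighbour, H2-DMb2, whose own probe was above background on 0 of 8 arrays. Whether the H2-DMb1 probe also binds H2-DMb2 transcripts was not tested.

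Ciita went the other way. It was at 8.26, 8.29, 8.35 and 8.16 in 3M and at 7.69, 7.88, 8.10 and 8.16 in 29M. The groups did not overlap at full precision, although replicate 4 of each was at 8.16. Non-overlapping groups with 29M lower were found for 5.55% of all tested probes. The log2 change was -0.31 with an SE of 0.11 (interval from -0.57 to -0.05, 0.807-fold), with a limma adjusted p of 0.213. The lowest median spot intensity of Ciita was 218 and the highest 352, over a local background of at most 34 units.

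Outside Ciita, the members varied together from array to array. After subtracting each group's mean, the 15 pairs among the other 6 genes had Pearson r from 0.66 to 0.99 over the 8 arrays, with a median of 0.84. The chain genes and Cd74 were closest: r was 0.99 for H2-Aa with H2-Ab1 and 0.98 for H2-Aa with Cd74. H2-DMa and H2-DMb1, whose proteins form a dimer, were the least alike of these pairs at 0.66. The 6 pairs with Ciita had r from -0.40 to -0.15. These values describe 8 arrays that share their normalization, and were not tested.

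In 6 of the 7 genes replicate 3 of 29M was the highest array and replicate 3 of 3M the lowest. For Ciita the highest was replicate 3 of 3M and the lowest replicate 1 of 29M. Averaged over the 7 genes as deviations from each gene's mean, the 3M arrays stood at 0.45, -0.29, -0.70 and -0.21 and the 29M arrays at 0.21, 0.21, 0.60 and -0.28. The set as a whole therefore had replicate 1 of 3M above 3 of 4 old samples.

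Replicate 1 of 3M and replicate 4 of 29M, the arrays that crossed to the other group, shared a slide. Slide 1 held replicate 1 of 3M and replicates 3 and 4 of 29M, slide 2 held replicate 2 of each group, and slide 3 held replicates 3 and 4 of 3M and replicate 1 of 29M. Within slide 1 the median difference of the 7 genes, 29M minus 3M, was -0.39, and 1 of 7 was higher in 29M, H2-DMb1. Within slides 2 and 3 it was 0.57 and 1.02, with 6 of 7 higher on each. H2-Ab1 differed by -0.53, 0.94 and 1.11 on slides 1, 2 and 3, and Cd74 by -0.70, 0.49 and 0.78. H2-DMb1 kept its sign, at 0.24, 0.57 and 1.02, and so did Ciita, at -0.13, -0.42 and -0.57. A slide holds 1 or 2 arrays of a group, so these differences carry no test. With slide as a fixed block, 0 members were called and their median change was 0.46.

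**Figure D2:**
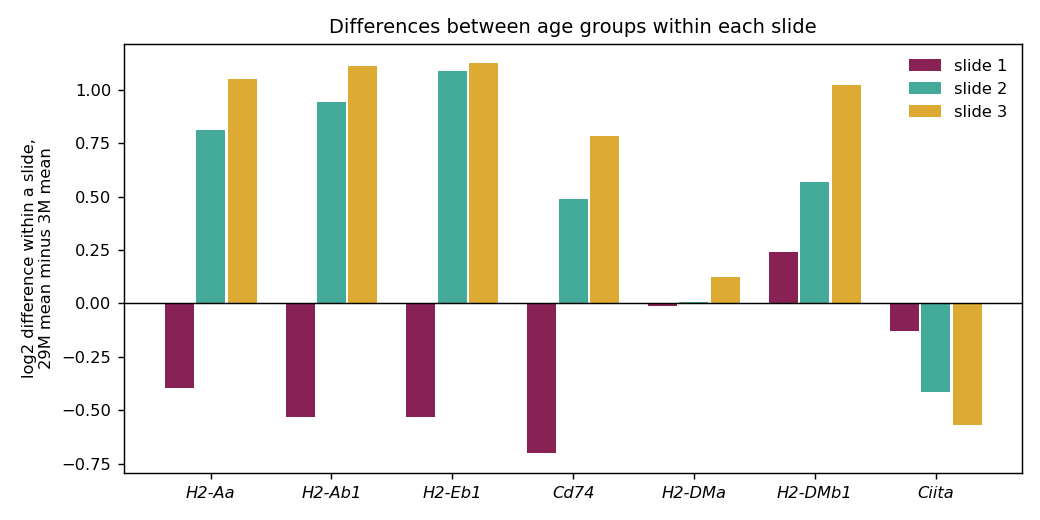
Log2 difference between the 29M mean and the 3M mean (y axis) within each of the 3 slides (colours) for the 7 genes (x axis). The bars of slide 1 point down for H2-Aa, H2-Ab1, H2-Eb1 and Cd74 where those of slides 2 and 3 point up, while H2-DMb1 is above 0 and Ciita below 0 on every slide.

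Replicate 1 of 3M decided the calls of 2 genes. Without it, H2-DMb1 differed by 0.90 on the log2 scale (limma, adjusted p = 0.0335) and H2-Eb1 by 0.98 (limma, adjusted p = 0.0906), and both were called, beside 2.06% of all probes called higher in that fit. H2-Aa, H2-Ab1 and Cd74 reached 0.84, 0.96 and 0.64 without this array and were not called. Other arrays moved these values the other way: without replicate 3 of 3M, the lowest array, H2-Aa, H2-Ab1 and Cd74 were at 0.31, 0.35 and 0.06. Cd74 was at 0.05 without replicate 3 of 29M and at 0.58 without replicate 4 of 29M. Leaving out any other single array called 0 members. The file of replicate 1 of 3M was the only 1 of 8 whose header asks for evaluation of the extraction. This array also had the lowest share of spots well above background, 76.2% against 78.9 to 85.0% on the other arrays. The part of these properties in the class II values was not tested.

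**Figure D3:**
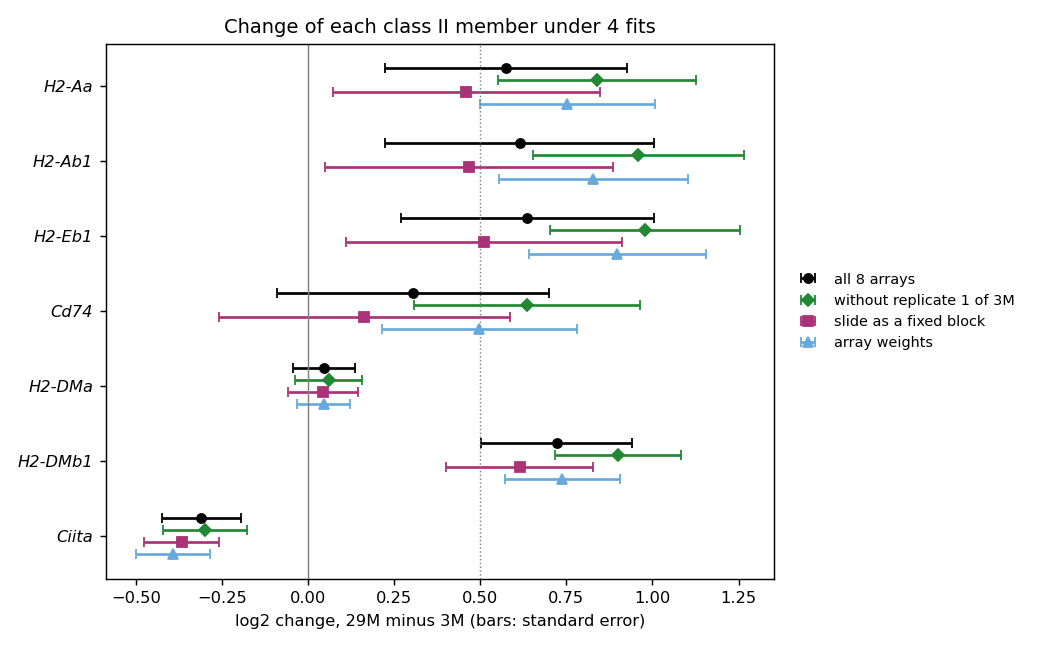
Log2 change from 3M to 29M (x axis, bars show the standard error) of each gene (y axis) with all 8 arrays, without replicate 1 of 3M, with slide as a block and with array weights. The dotted line marks the change of 0.5 needed for a call; H2-DMa stays near 0 and Ciita below 0 in all 4 fits.

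Genes that work with the members, and 10 genes of the MHC class I route for comparison, were read from 5 further lists. These lists held 49 measured genes, the class I genes included. In these, 6 genes were called higher and 0 lower, where 1.58% of all named genes were called higher and 0.699% lower. The class I list gave 1 of the 6, H2-D1. The lists were chosen with earlier results of these data known, so the count describes them and is no test. The count of 6 was 2 to 14 with each array left out in turn, the 14 being without replicate 1 of 3M. It was 3 with slide as a fixed block and 6 with slide as a random block. Among the 4 other class II genes measured, H2-Oa, which opposes H2-DM, was called. It was at 8.19, 8.31, 7.999 and 8.26 in 3M and at 9.10, 9.30, 9.07 and 8.56 in 29M, so the groups were apart. Its log2 change was 0.82 with an SE of 0.15 (limma, adjusted p = 0.0364). H2-Ob, its partner chain, had a change of 0.13 (SE 0.11), H2-Eb2 of 0.21 (SE 0.15) and H2-DMb2 of 0.18 (SE 0.13), and none of these 3 was called. The deviations of the other class II genes followed those of the members less closely than most lists did, with r = 0.22 over the 8 arrays after group means. Of these 4 genes 2 were well above background on all 8 arrays, and H2-DMb2 was on 0. The part of the dim probes in this r was not tested.

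Of the 10 processing genes, 9 had a higher mean in 29M, 2 were called and 7 had groups that did not overlap. Over all named genes 1.58% were called higher, and 5.51% of all tested probes had non-overlapping groups with 29M higher. Ctss, the cathepsin that makes the late cuts in the invariant chain, was at 14.60, 14.39, 14.18 and 14.42 in 3M and at 15.22, 15.26, 15.42 and 14.99 in 29M. Every old sample was above every young one, and the log2 change was 0.83 with an SE of 0.12 (limma, adjusted p = 0.0137). Ctse, an endosomal aspartic protease, was above background on 0 of 4 arrays in 3M and on 3 of 4 in 29M, at least 1.26-fold higher in 29M (limma, adjusted p = 0.0257). That bound sets the 29M mean against the higher, on each 3M array, of the probe's own value and the lowest value well above background. Ifi30, which reduces disulphide bonds of antigens, and the asparagine endopeptidase Lgmn had log2 changes of 0.48 (SE 0.11) and 0.39 (SE 0.09), below the size needed for a call. Marchf1, a ubiquitin ligase that removes class II from the surface, had a change of -0.08 (SE 0.11).

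Of the 17 inducers of Ciita and proteins that act on class II promoters, 9 had a higher mean in 29M and 1 was called. This was Irf8, a transcription factor of myeloid cells, with a log2 change of 0.60 and an SE of 0.13 (limma, adjusted p = 0.0642). Ifng, the cytokine itself, was at 7.36, 6.37, 6.44 and 6.80 in 3M and at 6.23, 6.22, 6.22 and 6.33 in 29M. It was lower on all old arrays and highest on replicate 1 of 3M, and its log2 change of -0.49 (SE 0.19) had a limma adjusted p of 0.237. Of all tested probes, 5.55% had non-overlapping groups with 29M lower. Irf1, a transcription factor that interferon gamma induces, had a change of 0.23 (SE 0.17). Rfx5, a DNA-binding subunit of RFX, had a change of -0.05 (SE 0.13).

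Among 8 genes of costimulation and T cell partners, Lag3, a class II receptor on T cells, was called. It lay between 8.15 and 8.31 in 3M and at 9.33, 9.33, 9.41 and 8.40 in 29M, a log2 change of 0.89 with an SE of 0.20 (limma, adjusted p = 0.0718). Irf8 and Lag3 were called in 8 and 9 of 18 other settings of the analysis. Replicate 4 of 29M, low for the class II chains, was also nearest to the young samples for Lag3.

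**Figure D4:**
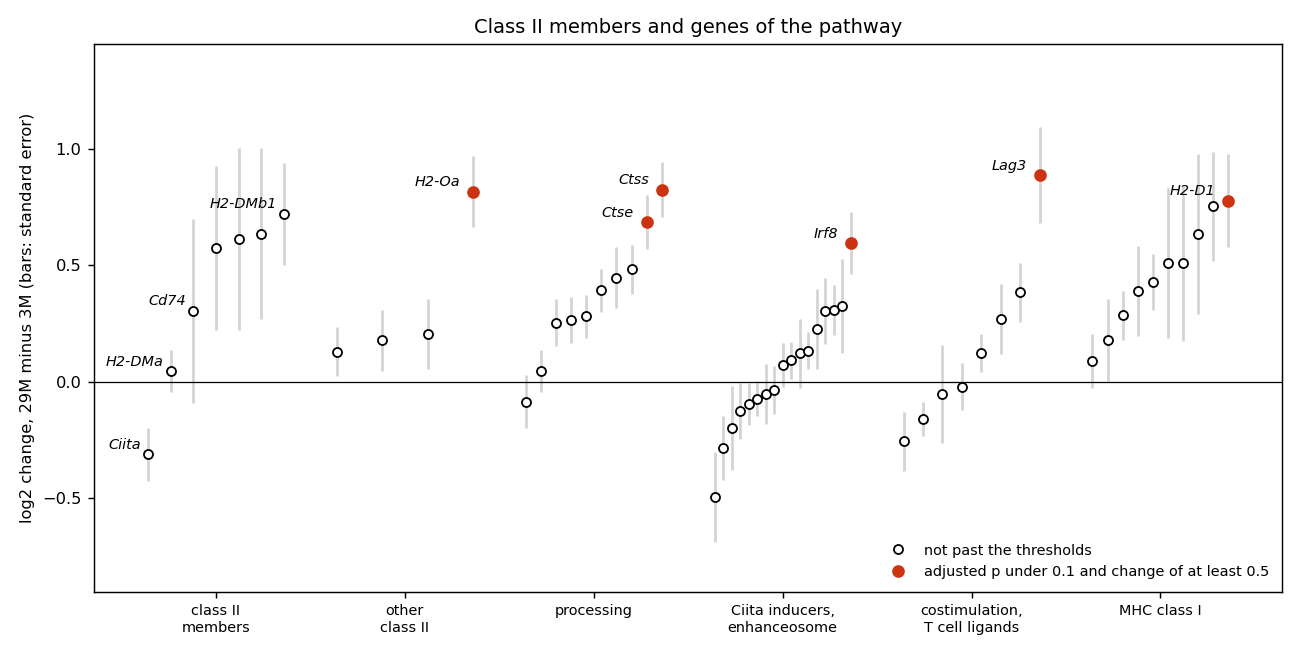
Log2 change from 3M to 29M (y axis, bars show the standard error) of the class II genes and of 5 lists of related genes (x axis, genes in order of change). Filled points are the 6 genes past the thresholds, H2-Oa, Ctss, Ctse, Irf8, Lag3 and H2-D1; the 7 class II members are open points between -0.31 and 0.72.

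The 10 genes of the MHC class I route, which presents peptides from inside the cell to CD8+ T cells, were read for comparison. All 10 had a higher mean in 29M, with a median log2 change of 0.47, and 1 was called: H2-D1, a class I heavy chain, at 0.78 with an SE of 0.20 (limma, adjusted p = 0.0975), which was called in 7 of 18 other settings. H2-K1 had a change of 0.75 (SE 0.23) and missed the threshold. Transcripts of near-identical class I genes may share these probes, which was not tested. Replicate 1 of 3M again stood with the old group: Nlrc5, the class I counterpart of Ciita, was at 9.08, 7.64, 7.28 and 7.87 in 3M and at 8.63, 8.48, 8.43 and 8.37 in 29M. On this array Nlrc5, Psmb8, Psmb9, H2-K1 and Ifng had their highest value of all 8 arrays, whereas Ciita, at 8.26, lay within the range of the other young samples. H2-K1 was at 14.59 there against 14.58 on replicate 3 of 29M. Tap1, Tap2, Tapbp, B2m and H2-D1 were highest on an old array. Replicate 4 of 29M, low for class II, was at 0.11 for the mean deviation of the class I genes, against -0.56 to -0.35 on the other 3 young arrays. The class I deviations followed those of the class II members with r = 0.86 after group means.

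Markers of cell types that can hold class II were set beside the members. Over all named genes, 1.58% were called higher. Of 12 microglial markers 0 were called, with a median log2 change of 0.30. Of these, 10 had a higher mean in 29M and 4 had non-overlapping groups with 29M higher, beside 5.51% of all tested probes. The mean deviation of the list ran from -0.21 to -0.06 in 3M and from 0.01 to 0.21 in 29M. Of 8 markers of border-associated macrophages 1 was called, Cbr2, with a median of 0.36, while Cd163 was above background on 0 arrays. Of 7 dendritic cell markers 3 were called: Itgax at 1.96, Cd209a at 1.12 and Batf3 at 0.81. The median of the list was 0.18: Flt3 and Ccr7, above background on all 8 arrays, had changes of 0.02 and -0.09, while Xcr1 was above background on 0 arrays and Clec9a on 3. Itgax is also made by activated microglia. Of 6 B cell markers 0 were called, with a median of 0.01, and Ms4a1 was above background on 2 arrays.

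Their array profiles can be read against that of the members. The meningeal list, with 0 of 7 genes called, was highest on replicate 3 of 29M at 0.65 and lowest on replicate 4 of 29M at -0.44, the old arrays on which the class II chains were highest and lowest. Its sum of linear values ran from 49332 to 70368 in 3M and from 44904 to 91391 in 29M. Border-associated macrophage markers were at 0.38 and -0.03 on these arrays, and their sum ran from 7628 to 10774 in 3M and from 9399 to 13650 in 29M. Among the old arrays, the class I, processing, microglial, dendritic cell and astrocyte lists were likewise highest on replicate 3 and lowest on replicate 4. The B cell markers had their highest mean deviation on replicate 1 of 3M, at 0.32, but their sum on this array, 7765, was the lowest of the 4 young arrays. Those sums ran up to 9940 in 3M and from 5999 to 6927 in 29M. The choroid plexus list, with 0 of 7 called, was lowest on replicate 3 of 3M, at -0.80, the array on which 6 of the 7 class II genes were lowest. This array was also the lowest for the class I (-0.56), dendritic cell (-0.41), processing (-0.38) and red blood cell (-0.27) lists. The same held for the microglial (-0.21), endothelial (-0.21) and B cell (-0.14) lists. After group means, r with the members over the 8 arrays was 0.88 for microglia, 0.86 for endothelium, 0.85 for dendritic cells, 0.77 for meninges, 0.76 for B cells, 0.74 for border-associated macrophages and 0.70 for T cells. It was 0.61 for red blood cells, 0.54 for astrocytes, 0.36 for choroid plexus, 0.29 for monocytes and neutrophils and -0.34 for hippocampal neurons. The part of these cells in the class II values was not tested.

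**Figure D5:**
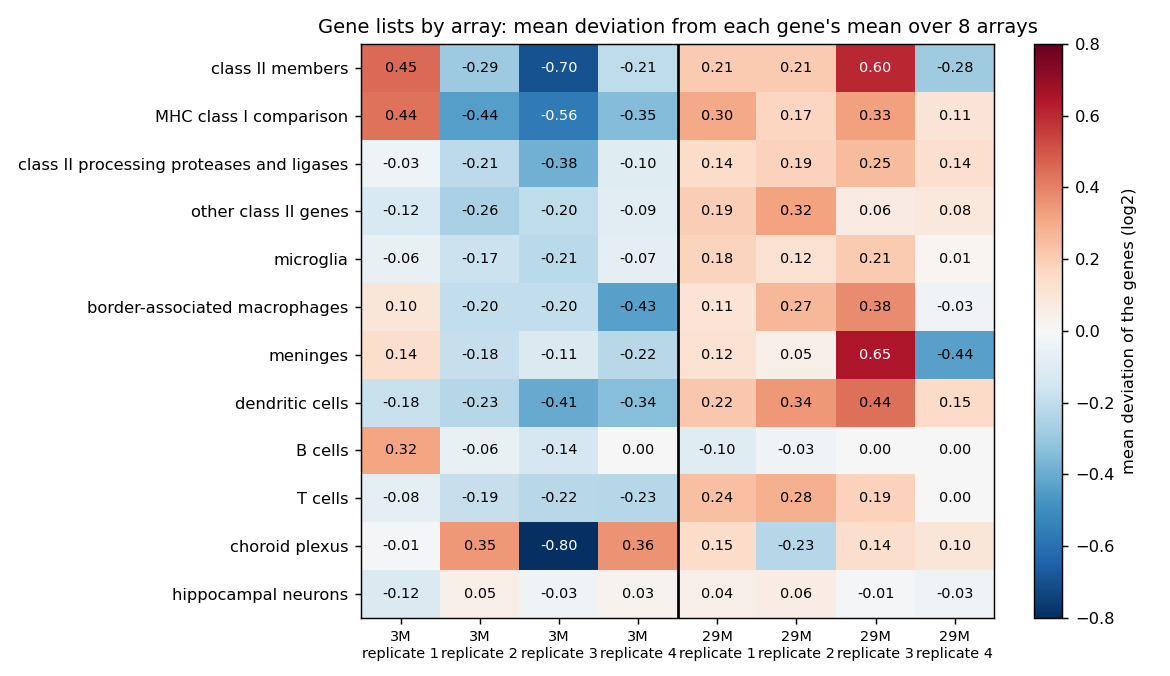
Mean deviation (log2, colour and printed value) of the genes of 12 lists (rows) from each gene's mean over the 8 arrays (columns). The class II and class I rows are high on replicate 1 of 3M, the meningeal row is highest on replicate 3 and lowest on replicate 4 of 29M, and the neuronal row stays between -0.12 and 0.06.

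The remaining lists served as a check of the tissue, again beside 1.58% of all named genes called higher. All 8 hippocampal neuron markers were above background on every array, with 0 called and a median of 0.05. Of 7 T cell markers 3 were called, Cd3d, Cd8a and Cd2, at 0.96, 0.71 and 0.65. The median of that list was 0.24, and Cd3e, Cd8b1 and Lck, also above background on all 8 arrays, had changes of 0.07, -0.04 and -0.12. Of 6 astrocyte markers 1 was called, Gfap, at 0.71, and of 6 endothelial markers 1, Vwf, at 0.59. Of 6 monocyte and neutrophil markers and 4 red blood cell markers 0 were called, with medians of 0.25 and -0.32. Arrays correlated with each other at 0.991 to 0.998 over all probes.

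The 8 genes whose array profile was most like the mean of the 7 members, out of 15913 that were above background on all arrays, were Cdk5rap2, Slc6a20a, Ly86, Kif16b, Zfp820, Clec18a, Kcnk6 and H2-T10. The r after group means ran from 0.987 for Cdk5rap2 to 0.978 for H2-T10, over 8 arrays. Their own changes between the groups ranged from -0.25 for Zfp820 to 0.58 for Ly86, an accessory protein of innate immune receptors, and 0 of the 8 were called.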

How the data were processed

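Groups and replicate numbers were taken from the sample titles, and ages from the labels. For each of the 8 arrays the authors deposited the scanner output, which holds linear spot intensities before any normalization. Its headers name Agilent Feature Extraction 10.7.3.1; the study's methods name another version, scanner and array design, and the headers were followed. The series' value table was not used as expression: its 8 columns equal the mean local background, as intensities deposited by the authors, of the named sample in 1 case and of another sample in 7 (tolerance 0.001), with column medians from 26.7 to 34.8.

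From the median intensities of the non-control spots, without those marked as outliers (127 to 190 of 43020 per array), an own implementation of the variance stabilising normalization named in the methods was fitted (least trimmed squares quantile 0.9, 7 iterations). Spots of a probe were averaged. Probes usable on at least 3 arrays per group (39408 of 39429) were fitted with limma 3.58.1 in R 4.3.3, 29M against 3M, and adjusted over all of them by the Benjamini-Hochberg method. Calls needed an adjusted p below 0.1 and a log2 change of at least 0.5. On simulated data for 39098 probes with 200 changed, 93% were recovered and 7.92% of the calls were false. Recovery of changes of the size of those in the class II genes was not tested. The number of arrays limits the precision.

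Probes were named through RefSeq accessions (66.1% had a symbol), and the probe with the highest mean stood for a gene. The text names all members, pathway genes called or listed as background to a member, the 8 genes nearest in profile and defining markers. The value of 1 pathway gene that this rule names is not reported here. The members and lists were chosen with earlier results of these data known. Same-numbered samples of the groups deviated together with r of -0.24, 0.21, -0.23 and 0.07, so the replicate numbers were not taken as pairs. Alternatives covered scaling, background, dim probes, slide, replicate block, prior, array weights, threshold and each array left out; leaving out each slide was added after seeing the data.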

Additional observations from a re-analysis of the deposited data

Results flagged for a closer look

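In 44 groups of 4 values, 3 held an array set far apart from the other 3 by Dixon's ratio of the gap to the range, where chance gives about 2.2. H2-DMa in 3M was lowest on replicate 3, at 10.96 against 11.12 to 11.14 on the others (ratio 0.893). Lag3 in 29M was lowest on replicate 4, at 8.40 against 9.33 to 9.41 (ratio 0.916). Ifng in 29M was highest on replicate 4, at 6.33 against 6.22 to 6.23 (ratio 0.897).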

How the results depend on the processing

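The count of called class II members, 0 as reported, was 2 with array weights (H2-Eb1 at 0.90, limma adjusted p = 0.0701, and H2-DMb1 at 0.74, adjusted p = 0.0355), 0 to 2 with each array left out, and 2 without slide 1 (H2-Ab1 and H2-Eb1). Over 19 alternatives that give a value for each gene, all 7 genes kept their sign, outside the values within single slides. Among these, the threshold, dim probe, replicate block and prior settings give the log2 changes of the main fit, so their signs could not differ. The adjusted p ran from 0.0701 to 0.628 for H2-Eb1, from 0.0335 to 0.284 for H2-DMb1 and from 0.0621 to 0.407 for Ciita. The median change of the members, 0.57 as reported, was 0.31 to 0.84 with each array left out, 0.31 being without replicate 3 of 3M, and -0.39 within slide 1. There H2-Aa, H2-Ab1, H2-Eb1, H2-DMa and Cd74 turned to -0.39, -0.53, -0.53, -0.0095 and -0.70, and without slide 3 H2-DMa and Cd74 turned to -0.0046 and -0.096.

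The 6 called pathway genes were 2 after scaling to the 75th percentile, 2 with the replicate block, 3 with a fixed and 6 with a random slide block, 11 with array weights, 3 at an adjusted p below 0.05, 2 to 14 with each array left out, and 14, 0 and 0 without slides 1, 2 and 3. The 14 came without replicate 1 of 3M; without replicate 2 of 3M or replicate 1 of 29M 2 were called, and without replicates 3 or 4 of 3M or 2 or 3 of 29M 3 were. Ctss was called in 18 of 18 settings, H2-Oa in 16, Ctse in 14 of 17, Lag3 in 9, Irf8 in 8 and H2-D1 in 7. Over all probes, the 491 called higher were 267 with the replicate block, 843 with array weights, 308 at an adjusted p below 0.05, 255 to 810 with each array left out, and 766, 85 and 1 without slides 1, 2 and 3. The replicate block called 0 members. The cause of these shifts was not tested. With 4 arrays a group, and a class II spread of up to 0.76 (SD) within a group, changes of the size of those in H2-Aa, H2-Ab1, H2-Eb1 and Cd74 were not resolved from 0.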
